A study of Homo sapiens with 24 samples.

Results

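The bromodomain inhibitor ABBV-075 was given to MV-4-11 and to Kasumi-1 cells, and the quantity described here is how far its effect on each gene differed between these lines. For every gene the change from DMSO to ABBV-075 was taken on the log2(FPKM + 1) scale in each line, and the change in Kasumi-1 was subtracted from the change in MV-4-11. FPKM counts sequenced fragments scaled to transcript length and library size, and a step of 1 on the log2 scale is a doubling for well expressed genes and an understated change for genes near 1 FPKM. A positive response difference means that the transcript ended higher, relative to its own DMSO level, in MV-4-11 than in Kasumi-1. Genes entered when at least 2 of the 4 libraries of each line held 1 FPKM or more, which kept 10896 of the 30373 rows of the table. A gene under 1 FPKM in the DMSO libraries of a line could enter only through its ABBV-075 libraries, and the reverse. Its change in that line was then partly a condition of entry. The comparison uses 8 of the 24 libraries of the series, 2 in each of 4 groups: MV-4-11 with DMSO, MV-4-11 with ABBV-075 at 100 nM, Kasumi-1 with DMSO, and Kasumi-1 with ABBV-075 at 100 nM, all after 24 h. The other libraries hold ABBV-744 at 200 nM in the same lines and all 3 treatments in SKM-1 (acute myeloid leukaemia) and NCI-H1299 (non-small cell lung cancer), and they entered the fit to steady the estimate of the spread. The difference was called at an adjusted p under 0.05 for 3002 of the 10896 genes (27.6%), 1847 of them higher in MV-4-11 (17.0%) and 1155 lower (10.6%).

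BET proteins carry paired bromodomains that bind acetylated lysines on histones, and they recruit the elongation factor P-TEFb to promoters and enhancers. ABBV-075 blocks both bromodomains of the BET family, whereas ABBV-744 is selective for the second. In acute myeloid leukaemia such compounds are known for lowering MYC and for raising HEXIM1 and histone transcripts. MV-4-11 is a monocytic leukaemia line with a KMT2A (MLL) fusion and an internal tandem duplication in the receptor FLT3. Kasumi-1 carries the RUNX1-RUNX1T1 fusion of the t(8;21) leukaemias and a mutant receptor KIT. Each line is a single culture model of its leukaemia, and line and driver lesion cannot be told apart. In bulk RNA of this kind, fewer cells of a type and less RNA per cell cannot be told apart either.

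The labelled lines carried their defining transcripts. RUNX1T1 stood between 29.9 and 53.7 FPKM in the 4 Kasumi-1 libraries and at or under 0.04 FPKM in the 4 MV-4-11 libraries. HOXA9 and MEIS1, the homeobox genes kept active by KMT2A fusions, stood at 44.8 to 119.7 and 29.6 to 48.1 FPKM in MV-4-11 and at most 1.45 FPKM in Kasumi-1. POU4F1, often high in t(8;21) leukaemia, was under 1 FPKM in all 8 libraries. Of 22 markers of lymphoid, erythroid, megakaryocytic, epithelial and fibroblast cells, 17 were under 1 FPKM in all 8 libraries. The epithelial adhesion gene EPCAM was the highest of the exceptions. In Kasumi-1 it stood at 70.7 and 62.2 FPKM with DMSO and 16.1 and 22.5 FPKM with ABBV-075. CDH1, of the same list, held at most 0.03 FPKM in those libraries. In MV-4-11 the epithelial keratins KRT18 and KRT8 reached 7.19 and 2.29 FPKM, and the megakaryocytic gene ITGA2B 3.23 FPKM. The lymphoid gene CD79A reached 1.34 FPKM in Kasumi-1.

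The libraries differed in a property of the transcripts, and it bears on the response difference. Within the pair of Kasumi-1 libraries with ABBV-075, the log2 difference of replicate 2 minus replicate 1 followed the GC content of the transcript, with a Spearman rho of -0.816 across 10234 genes that share these libraries. With the genes split by GC content into 5 equal groups, its median ran from 0.41 in the lowest group to -0.65 in the highest. Replicate 2 of MV-4-11 with DMSO leaned the other way against replicate 1 (rho 0.759, medians from -0.22 to 0.23). The log2 values of the Kasumi-1 ABBV-075 pair differed with an SD of 0.491, against 0.217 to 0.268 in the other 3 pairs of the comparison. Mitochondrially encoded transcripts took 8.08% to 16.3% of the FPKM of the 8 libraries. The response difference itself rose with GC content (rho 0.495), with medians from -0.30 in the lowest group to 0.54 in the highest. Of the called genes in the lowest group 72 were higher in MV-4-11 and 393 lower, and in the highest group 593 were higher and 49 lower. Without replicate 2 of Kasumi-1 with ABBV-075 the rho was 0.226, and 2040 genes were called, 1210 higher and 830 lower. After a smooth GC trend was removed from every library it was 0.032, and 3896 of 10234 genes were called, 1982 higher and 1914 lower. Of the 2881 genes with a GC value that were called in the deposited values, 2513 (87.2%) were called in the same direction after removal, 0 in the opposite direction, and 368 were not called. Nothing in the labels ties the paired libraries to separate cultures. The p-values therefore rest on a spread that may be technical, and an exact permutation test of 2 against 2 cannot go below 0.333. Over all tested genes 17.0% were called higher and 10.6% lower in the deposited values. Counts in the gene groups are to be read beside these shares. With the GC trend removed the counts over all genes were 1982 higher and 1914 lower of 10234. Counts of called differences in most gene groups are given also after removal of the GC trend and without replicate 2 of Kasumi-1 with ABBV-075. For most genes whose libraries are listed, the response difference is followed in the same brackets by its value under both of these changes.

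**Figure D1:**
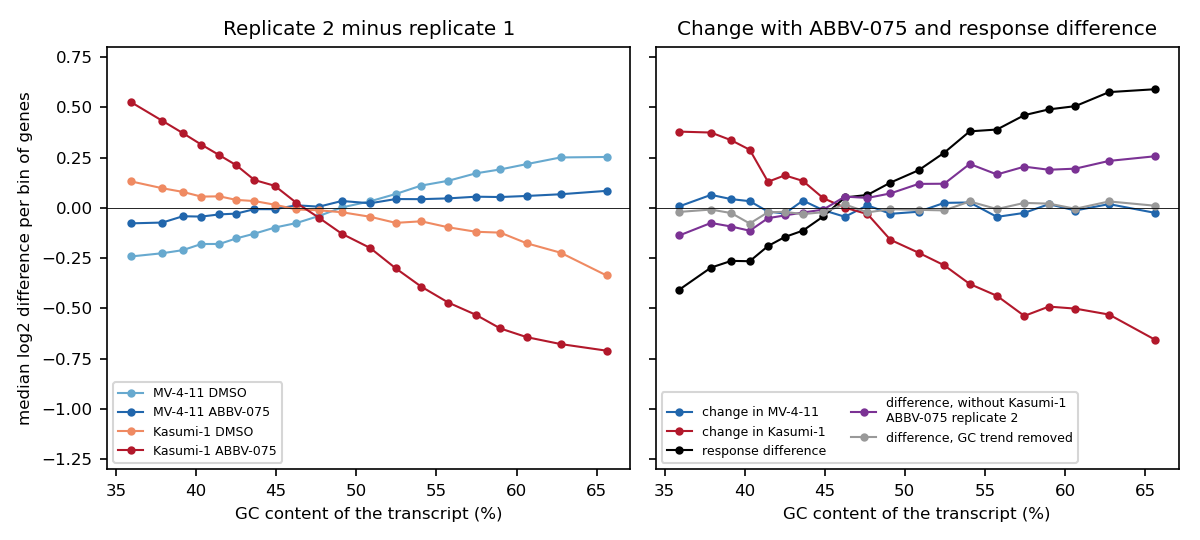
Median log2 difference (y axis) in 20 bins of genes by the GC content of the transcript in percent (x axis). The left panel plots replicate 2 minus replicate 1 in each of the 4 groups, where the Kasumi-1 ABBV-075 pair has the steepest line, and the right panel plots the change in each line and the response difference, which rises with GC content as deposited and stays close to 0 after removal of the trend.

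Across genes the changes in both lines ran together, with a Pearson r of 0.602 and a Spearman rho of 0.581 over the 10896 genes (r 0.653 with the GC trend removed). Changes were wider in Kasumi-1, with an SD of 0.86 against 0.66 in MV-4-11. In MV-4-11, 4353 genes changed (40.0%), 2176 upward and 2177 downward. In Kasumi-1 6168 changed (56.6%), 2676 upward and 3492 downward. That excess of falls depended on the scaling: with the GC trend removed 3400 rose and 3222 fell in Kasumi-1, after quantile scaling 3332 and 2986, and after median centring 3215 and 3041. The larger number in Kasumi-1 depended on the shared estimate of the spread. When each group of libraries was weighted by its own spread, 6162 genes changed in MV-4-11 and 4700 in Kasumi-1. The weight was 1.81 for MV-4-11 with ABBV-075 and 0.21 for Kasumi-1 with ABBV-075. Without these weights both lines called 3067 genes, 2833 of them in the same direction.

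The 3002 called differences were of several kinds, sorted here by the deposited values. The most frequent was a gene that fell in Kasumi-1 and was not called in MV-4-11, with 958 genes and a median difference of 1.02. A further 388 genes fell in both lines and fell further in Kasumi-1, and 492 genes rose in Kasumi-1 without a call in MV-4-11. Genes that changed in MV-4-11 without a call in Kasumi-1 were fewer, 277 rising and 262 falling. Directions were opposite, with a call in each line, for 234 genes: 124 rose in MV-4-11 and fell in Kasumi-1, and 110 did the reverse. With the GC trend removed, 155 of the 225 opposite genes that have a GC value stayed opposite. A difference of at least 2-fold was called for 1320 genes (12.1%), 891 higher (8.18%) and 429 lower (3.94%). Another 57 differences were called where neither line alone had a call. In the highest of the 5 GC groups the median change was -0.55 in Kasumi-1 and -0.002 in MV-4-11. The part of this in the number of falls called in Kasumi-1 alone was not tested.

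**Figure D2:**
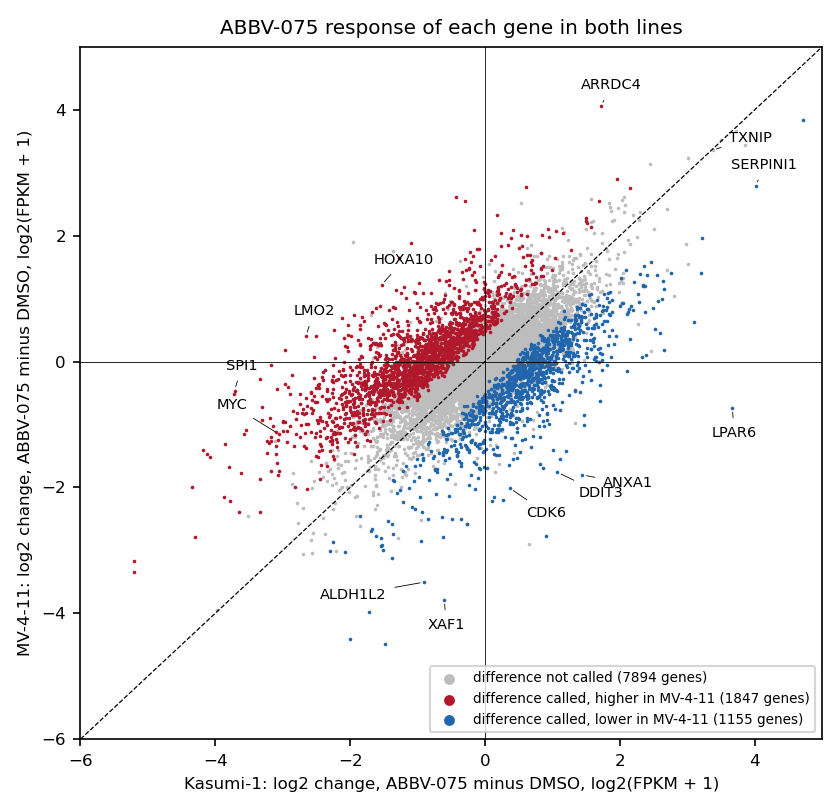
Each point is 1 of 10896 genes, with its log2 change with ABBV-075 in Kasumi-1 on the x axis and in MV-4-11 on the y axis. The dashed line marks equal changes, red points are the 1847 called differences above it, blue points the 1155 below it and grey points the 7894 that were not called.

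**Figure D3:**
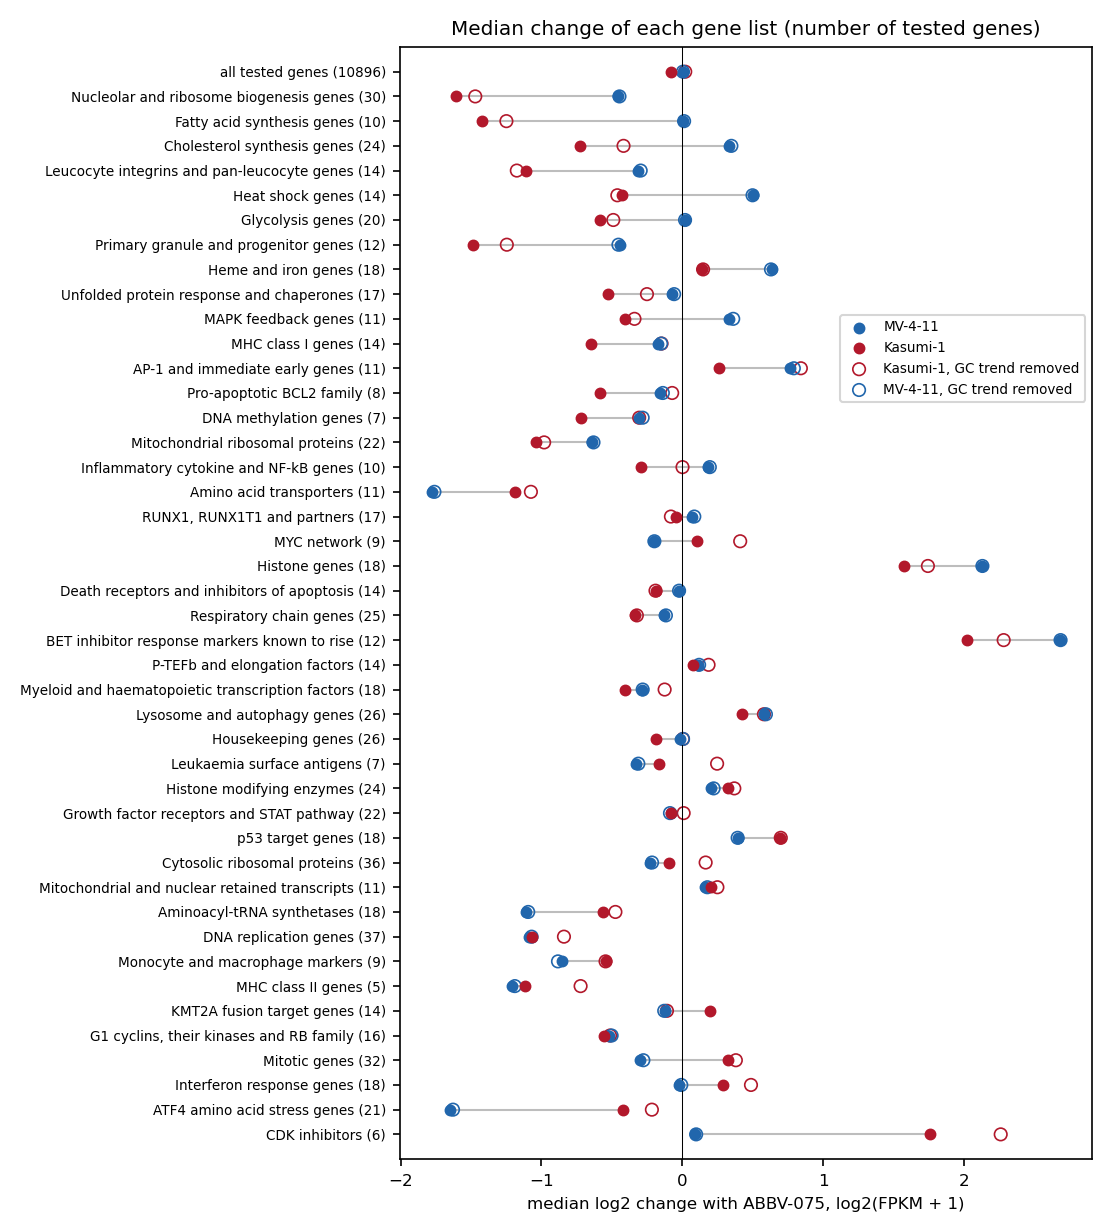
Median log2 change with ABBV-075 (x axis) of each gene list with at least 5 tested members (y axis, number tested in brackets), in MV-4-11 (blue) and Kasumi-1 (red), with open circles after removal of the GC trend. Lists are ordered by their median response difference, from CDK inhibitors at -1.46 to nucleolar genes at 1.16, and all 10896 genes are on the top line.

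MYC, the transcription factor that drives ribosome production and growth, fell in both lines and fell further in Kasumi-1. It stood at 178 and 174 FPKM with DMSO and 80.8 and 76.7 FPKM with ABBV-075 in MV-4-11, and at 265 and 229.7 and then 29.4 and 28.1 FPKM in Kasumi-1. The libraries of the treatments did not overlap in either line, which holds for 77.8% of all tested genes in MV-4-11 and 72.3% in Kasumi-1. The change was -1.15 in MV-4-11 and -3.06 in Kasumi-1, and the response difference was 1.91 ± 0.25 (SE, adjusted p = 5.7e-05, 1.57 without the GC trend and 1.88 without replicate 2). MXD4, a partner of MAX that opposes MYC, rose in MV-4-11 (1.34) and was not called in Kasumi-1 (0.19). Its difference of 1.15 ± 0.38 (SE, adjusted p = 0.033) was lost in 7 of 26 alternative analyses. In the MYC network as a list the difference was called for 22.2% of tested genes, against 27.6% of all tested genes. Of 9 tested members of the MYC network, 2 were called higher and 0 lower, 2 and 2 with the GC trend removed, and 1 and 1 without replicate 2 of Kasumi-1 with ABBV-075.

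Nucleolar and ribosome biogenesis genes, many of which are known MYC targets, followed the same order. Of 30 tested genes 22 were called higher in MV-4-11 and 0 lower, with a median of 1.16 against 0.10 for all tested genes. With the GC trend removed 25 were higher and 0 lower (median 1.04), and without replicate 2 of Kasumi-1 with ABBV-075 23 were higher and 0 lower. In Kasumi-1 28 of the 30 fell (median -1.61), and in MV-4-11 16 fell (median -0.46). RRP12, which exports pre-ribosomes, stood at 15.04 and 17.6 FPKM with DMSO and 11.9 and 14.3 FPKM with ABBV-075 in MV-4-11, and at 28.9 and 24.8 and then 5.74 and 3.10 FPKM in Kasumi-1. Its treated and DMSO libraries overlapped in neither line, as for 77.8% of all tested genes in MV-4-11 and 72.3% in Kasumi-1. The fall in MV-4-11 was not called (-0.30), and the difference was 2.10 ± 0.27 (SE, adjusted p = 4.4e-05, 1.64 without the GC trend and 1.75 without replicate 2). PPAN, a factor of the large subunit, differed by 1.96 ± 0.33 (SE, adjusted p = 0.0005), and RRS1, which acts at the same step, by 1.84 ± 0.19 (SE, adjusted p = 7.1e-06). POLR1A, the catalytic subunit of RNA polymerase I, differed by 1.73 ± 0.20 (SE, adjusted p = 1.6e-05), with -0.09 in MV-4-11 and -1.82 in Kasumi-1. NPM1 and NCL, of the same list, were not called and gave -0.56 ± 0.34 (SE, adjusted p = 0.24) and 0.62 ± 0.41 (SE, adjusted p = 0.27). Cytosolic ribosomal proteins, the product that these factors assemble, gave 0 of 36 called higher and 1 lower (0 and 7 with the GC trend removed, 0 and 0 without that replicate). NME1, a nucleoside diphosphate kinase and known MYC target, stood at 199 and 226 FPKM with DMSO and 79.7 and 79.4 FPKM with ABBV-075 in MV-4-11, and at 332 and 324 and then 19.4 and 14.99 FPKM in Kasumi-1. Its difference was 2.78 ± 0.22 (SE, adjusted p = 6.9e-07, 2.70 without the GC trend and 2.61 without replicate 2), although reads may be shared with the readthrough locus NME1-NME2 and the closely similar NME2.

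Regulators of the myeloid lineage included some of the widest differences, in both directions. SPI1 encodes PU.1, the master factor of monocytes and granulocytes. It stood at 93.1 and 119.8 FPKM with DMSO and 74.2 and 78.8 FPKM with ABBV-075 in MV-4-11, and at 51.9 and 44.9 and then 4.21 and 1.70 FPKM in Kasumi-1. Kasumi-1 lost most of the transcript in both treated libraries (-3.71), whereas the change in MV-4-11 was not called (-0.46), and the difference was 3.25 ± 0.34 (SE, adjusted p = 7.1e-06, 2.68 without the GC trend and 2.78 without replicate 2). LMO2, a bridging factor of blood progenitors, stood at 171 and 166 FPKM with DMSO and 223 and 224 FPKM with ABBV-075 in MV-4-11, and at 58.7 and 54.4 and then 8.08 and 8.17 FPKM in Kasumi-1. All 4 treated libraries lay outside the DMSO range of their line, and treatments did not overlap for 77.8% of all tested genes in MV-4-11 and 72.3% in Kasumi-1. The change was upward in MV-4-11 without a call (0.41) and downward in Kasumi-1 (-2.66), for a difference of 3.06 ± 0.30 (SE, adjusted p = 5.5e-06, 2.68 without the GC trend and 3.07 without replicate 2). Other factors went the other way. KLF6 fell in MV-4-11 (-1.41) and rose in Kasumi-1 (1.003), a difference of -2.42 ± 0.25 (SE, adjusted p = 6.4e-06). BCL6, a repressor, rose in Kasumi-1 (1.43), from 1.95 and 2.23 FPKM to 7.94 and 6.79 FPKM, and was not called in MV-4-11 (-0.32). MYB, a progenitor factor, was called in neither line, with a difference of -0.13 ± 0.18 (SE, adjusted p = 0.63). In the list of 18 tested myeloid and haematopoietic factors 6 were called higher and 4 lower, with a median of 0.16. With the GC trend removed the counts were 5 and 5 (median -0.02), and without replicate 2 of Kasumi-1 with ABBV-075 they were 5 and 4.

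The primary granule proteases PRTN3 and ELANE are made at the promyelocyte stage. PRTN3 stood at 180.4 and 236 FPKM with DMSO and 178 and 222 FPKM with ABBV-075 in MV-4-11, and at 1059 and 664 and then 122 and 69.8 FPKM in Kasumi-1. The MV-4-11 libraries of both treatments overlapped, the Kasumi-1 libraries were far apart, and the difference was 3.12 ± 0.47 (SE, adjusted p = 0.00022, 2.53 without the GC trend and 2.72 without replicate 2). ELANE also fell in Kasumi-1 (-1.65) and was not called in MV-4-11, with a difference of 1.95 ± 0.41 (SE, adjusted p = 0.0025). CTSG, of the same granules, fell in both lines (-3.95 and -3.98), and its difference was not called, 0.03 ± 0.90 (SE, adjusted p = 0.99). MPO, myeloperoxidase, stood at 3313 to 5655 FPKM in Kasumi-1 and 2.18 to 5.23 FPKM in MV-4-11, was called in neither line, and had a called difference with the GC trend removed (-0.88). Among 12 tested granule and progenitor genes 4 were higher and 1 lower (5 and 2 with the GC trend removed, and 4 and 0 without replicate 2 of Kasumi-1 with ABBV-075).

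Leucocyte integrins and pan-leucocyte genes gave 8 of 14 called higher and 1 lower, with a median of 0.88, and 8 higher and 2 lower with the GC trend removed (median 0.70). Without replicate 2 of Kasumi-1 with ABBV-075, 7 were higher and 0 lower. ITGB2, the common beta chain of leucocyte integrins, stood at 72.5 and 87.3 FPKM with DMSO and 63.9 and 59.6 FPKM with ABBV-075 in MV-4-11, and at 18.8 and 14.5 and then 1.48 and 1.04 FPKM in Kasumi-1, a difference of 2.60 ± 0.34 (SE, adjusted p = 6.4e-05, 2.12 without the GC trend and 2.46 without replicate 2). LCP1, an actin bundler of blood cells, differed by 1.69 ± 0.24 (SE, adjusted p = 0.00013), CD33, a myeloid surface antigen, by 1.58 ± 0.20 (SE, adjusted p = 4.4e-05), and the signal adaptor VAV1 by 1.46 ± 0.28 (SE, adjusted p = 0.0013). In each of these 4 genes the fall was deeper in Kasumi-1, and in MV-4-11 only that of VAV1 was called. RAC2, the blood cell form of the Rac GTPases, stood at 245 and 280.1 FPKM with DMSO and 337 and 362 FPKM with ABBV-075 in MV-4-11, and at 116 and 93.9 and then 22.5 and 13.5 FPKM in Kasumi-1, and its difference was 2.92 ± 0.35 (SE, adjusted p = 2.9e-05, 2.48 without the GC trend and 2.58 without replicate 2). CD53 and CORO1A, of the same list, were not called. Of 9 tested monocyte and macrophage markers 2 were higher and 3 lower, and 2 and 2 both with the GC trend removed and without replicate 2 of Kasumi-1 with ABBV-075. LYZ, lysozyme, fell in MV-4-11 (-1.58) from 1156 and 1021 FPKM to 378 and 349 FPKM, where Kasumi-1 held only 3.39 to 5.64 FPKM. CCR2, a chemokine receptor of monocytes, could not be tested in Kasumi-1: it stood at 52.3 and 51.5 FPKM with DMSO and 0.60 and 0.36 FPKM with ABBV-075 in MV-4-11, and the Kasumi-1 libraries held at most 0.11 FPKM.

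Genes tied to the driver lesion of MV-4-11 did not move as a block. HOXA10, a homeobox target of KMT2A fusions, stood at 31.8 and 27.9 FPKM with DMSO and 67.7 and 73.96 FPKM with ABBV-075 in MV-4-11, and at 18.6 and 19.6 and then 5.25 and 6.76 FPKM in Kasumi-1. Its treatments did not overlap in either line, as for 77.8% of all tested genes in MV-4-11 and 72.3% in Kasumi-1. It rose in MV-4-11 (1.22) and fell in Kasumi-1 (-1.53), and the difference was 2.75 ± 0.17 (SE, adjusted p = 2.5e-07, 2.40 without the GC trend and 2.91 without replicate 2). HOXA11 moved the same way (1.71 ± 0.22 SE, adjusted p = 6.4e-05). HOXA9 was too low in Kasumi-1 to be tested, and in MV-4-11 it went from 52.1 and 44.8 FPKM to 109.4 and 119.7 FPKM. CDK6, a cell cycle kinase on which KMT2A leukaemias depend, moved the other way in MV-4-11. It stood at 40.2 and 34.4 FPKM with DMSO and 8.06 and 8.89 FPKM with ABBV-075 in MV-4-11, and at 61.1 and 61.5 and then 70.8 and 89.3 FPKM in Kasumi-1. MV-4-11 lost most of it (-2.01), Kasumi-1 showed no called change (0.37), and the difference was -2.38 ± 0.27 (SE, adjusted p = 1.8e-05, -2.15 without the GC trend and -2.22 without replicate 2). SENP6, a SUMO protease, likewise fell in MV-4-11 (-1.40) and was not called in Kasumi-1 (0.12), with a difference of -1.52 ± 0.28 (SE, adjusted p = 0.00091). FLT3 rose in Kasumi-1 from a low level (0.94) and was not called in MV-4-11 (-0.25), a difference of -1.19 ± 0.20 (SE, adjusted p = 0.00044). BCL2 fell in both (-1.98 and -1.61), and its difference of -0.36 ± 0.17 (SE, adjusted p = 0.11) was not called in the deposited values, though it was with the GC trend removed (-0.37). In this list of 14 tested genes 4 were higher and 5 lower, 4 and 7 with the GC trend removed, and 3 and 4 without replicate 2 of Kasumi-1 with ABBV-075.

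On the Kasumi-1 side, the list of RUNX1, RUNX1T1 and their partners also split. Of its 17 tested genes 5 were called higher and 3 lower (47.1% called, against 27.6% of all tested genes). With the GC trend removed the counts were 3 and 3. RUNX1 rose in Kasumi-1 (1.14), from 53.7 and 46.2 FPKM to 112 and 110 FPKM, and was not called in MV-4-11 (0.34). Its difference was -0.80 ± 0.25 (SE, adjusted p = 0.027, -0.87 without the GC trend and -0.81 without replicate 2). The call was lost in 4 of 26 alternatives, among them the fit without that replicate. In Kasumi-1 reads of the fusion and of the normal allele are both counted under RUNX1 or RUNX1T1 and cannot be told apart here. RUNX1T1 stood at 29.9 and 32.5 FPKM with DMSO and at 53.7 FPKM in each treated library of Kasumi-1. RUNX3 fell in both lines and further in Kasumi-1 (0.91 ± 0.18 SE, adjusted p = 0.002), but the call was lost with the GC trend removed (0.48). KIT fell in both lines (-1.57 and -1.92) and CSF3R, the granulocyte colony receptor, did too (-2.25 and -2.79), and neither was called in the difference. CD34, the stem cell antigen, was untested because MV-4-11 held at most 0.03 FPKM, and in Kasumi-1 it went from 93.5 and 97.9 FPKM to 37.4 and 32.4 FPKM. Among receptors, IL3RA fell in MV-4-11 (-0.86) and was not called in Kasumi-1 (0.27), with a difference of -1.13 ± 0.24 (SE, adjusted p = 0.0024).

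**Figure D4:**
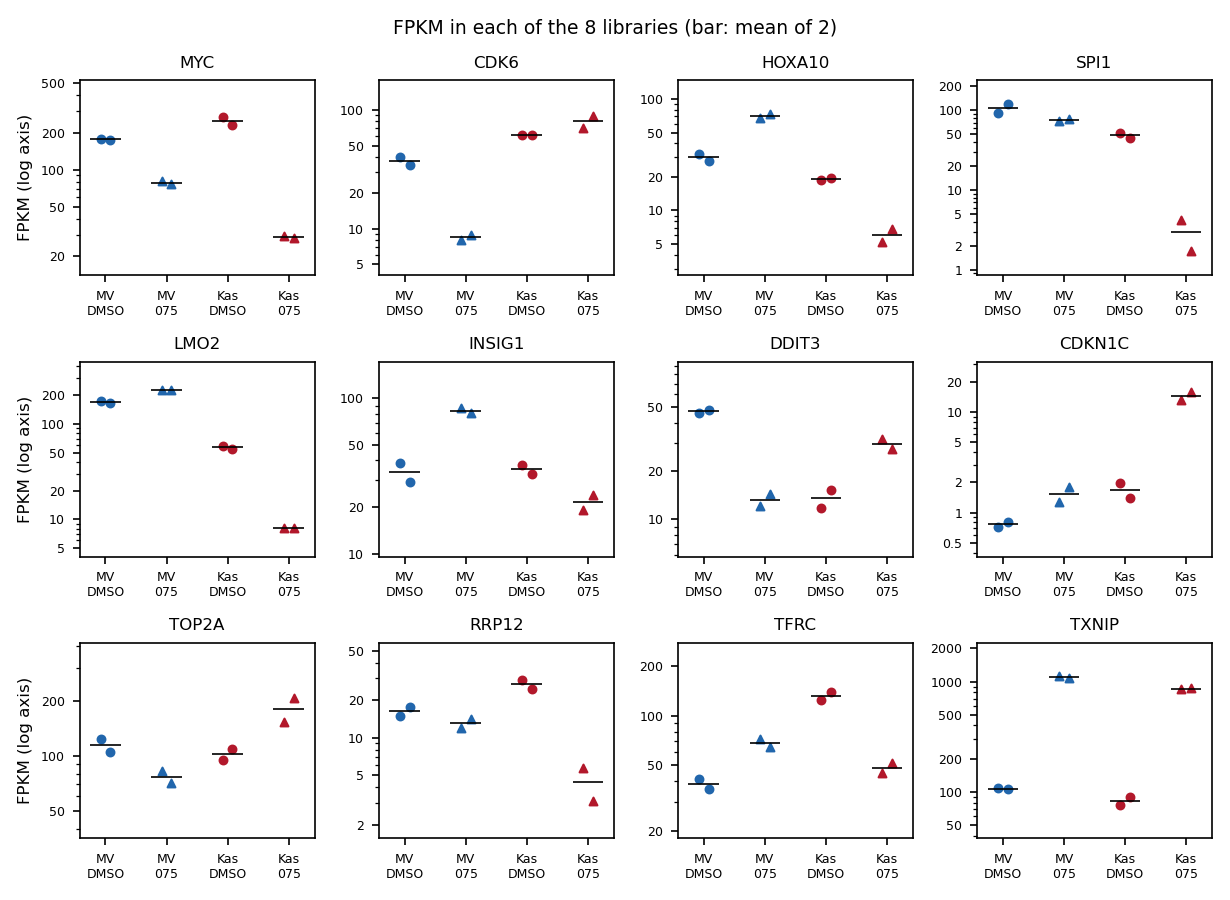
FPKM on a log axis in each of the 8 libraries for 12 named genes, with circles for DMSO, triangles for ABBV-075 (075), blue for MV-4-11 (MV), red for Kasumi-1 (Kas) and a bar at the mean of 2 libraries. HOXA10, INSIG1, TFRC, DDIT3 and TOP2A move in opposite directions in the lines, whereas TXNIP rises alike in both.

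Sterol synthesis differed between the lines, with 4 of 24 tested genes called in opposite directions. The genes of this pathway are switched on together by SREBP factors when membrane cholesterol runs low. Of 24 tested genes 17 were called higher in MV-4-11 and 0 lower, with a median of 1.005, and 20 and 0 with the GC trend removed (median 0.88). Leaving out replicate 2 of Kasumi-1 with ABBV-075 gave 15 higher and 0 lower. In MV-4-11 11 rose and 2 fell, and in Kasumi-1 2 rose and 16 fell. INSIG1, the sterol sensor that retains SREBP in the endoplasmic reticulum, stood at 38.4 and 29.1 FPKM with DMSO and 86.6 and 80.6 FPKM with ABBV-075 in MV-4-11, and at 37.4 and 32.5 and then 19.1 and 23.9 FPKM in Kasumi-1. It rose in MV-4-11 (1.29), fell in Kasumi-1 (-0.68) and differed by 1.98 ± 0.33 (SE, adjusted p = 0.00044, 1.95 without the GC trend and 2.13 without replicate 2). LSS, the synthase of the first sterol, rose in MV-4-11 (1.63) without a call in Kasumi-1 and differed by 1.93 ± 0.38 (SE, adjusted p = 0.0017). DHCR7, an enzyme of the last steps, fell in Kasumi-1 (-1.70) without a called change in MV-4-11, with a difference of 2.05 ± 0.31 (SE, adjusted p = 0.00021). TM7SF2, a sterol reductase of the same pathway, rose in both lines (1.65 and 1.32), and its difference was not called (0.32 ± 0.30 SE, adjusted p = 0.46).

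Fatty acid synthesis followed with 7 of 10 higher and 0 lower (median 1.14), and 7 and 1 with the GC trend removed. Without replicate 2 of Kasumi-1 with ABBV-075 the counts were again 7 and 0. FASN, the synthase, stood at 28.3 and 36.96 FPKM with DMSO and 33.7 and 34.4 FPKM with ABBV-075 in MV-4-11, and at 68.4 and 55.8 and then 13.5 and 7.05 FPKM in Kasumi-1. It fell in Kasumi-1 (-2.54) and was not called in MV-4-11 (0.07), with a difference of 2.61 ± 0.38 (SE, adjusted p = 0.00015, 2.03 without the GC trend and 2.18 without replicate 2). The desaturases SCD and FADS1 had narrower errors, at 2.11 ± 0.15 (SE, adjusted p = 3.6e-07) and 1.55 ± 0.15 (SE, adjusted p = 3.6e-06). ACSS2, which makes acetyl-CoA from acetate, rose in both lines, and its difference of -0.24 ± 0.26 (SE, adjusted p = 0.53) was called only with the GC trend removed (-0.60) and in 1 other alternative.

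TFRC, the transferrin receptor, stood at 40.99 and 35.9 FPKM with DMSO and 72.2 and 64.9 FPKM with ABBV-075 in MV-4-11, and at 125 and 139 and then 44.9 and 51.9 FPKM in Kasumi-1. It rose in MV-4-11 (0.82) and fell in Kasumi-1 (-1.43), a difference of 2.25 ± 0.16 (SE, adjusted p = 3.6e-07, 2.41 without the GC trend and 2.35 without replicate 2). Of 18 tested heme and iron genes, a list that also holds NRF2 targets, 8 were called higher and 0 lower, 6 and 0 with the GC trend removed, and 7 and 0 without replicate 2 of Kasumi-1 with ABBV-075. NQO1, a quinone reductase, rose in both and further in MV-4-11 (1.37 ± 0.23 SE, adjusted p = 0.0006). GCLM and SRXN1, of glutathione and peroxiredoxin upkeep, rose in MV-4-11 and fell in Kasumi-1, with differences of 1.15 ± 0.21 (SE, adjusted p = 0.00095) and 0.97 ± 0.18 (SE, adjusted p = 0.001). The ferritin heavy chain FTH1 rose in both lines (1.33 and 1.40), with a difference of -0.06 ± 0.19 (SE, adjusted p = 0.84).

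Glycolytic genes were higher in MV-4-11 for 13 of 20 and lower for 1, with a median of 0.83 that was 0.49 with the GC trend removed and still 13 and 1 called. Without replicate 2 of Kasumi-1 with ABBV-075 the counts were 7 and 1. The members of this list have a median GC content of 55.2%, against 48.4% for all tested genes. PKM, pyruvate kinase, stood at 222 and 254 FPKM with DMSO and 544 and 532 FPKM with ABBV-075 in MV-4-11, and at 264 and 244 and then 142 and 84.4 FPKM in Kasumi-1. It rose in MV-4-11 (1.18) and fell in Kasumi-1 (-1.21), a difference of 2.39 ± 0.25 (SE, adjusted p = 9.2e-06, 1.92 without the GC trend and 2.02 without replicate 2). ENO1, enolase, fell in Kasumi-1 (-1.69) and was not called in MV-4-11 (-0.04), a difference of 1.65 ± 0.28 (SE, adjusted p = 0.00057). SLC16A3, which exports lactate, also rose in MV-4-11 and fell in Kasumi-1 (2.24 ± 0.24 SE, adjusted p = 1.0e-05). GAPDH was not called in the difference (0.40 ± 0.36 SE, adjusted p = 0.43).

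Heat shock genes were called higher for 7 of 14 and lower for 0 (median 0.87), with 7 and 1 after removal of the GC trend and 7 and 0 without replicate 2 of Kasumi-1 with ABBV-075. HSPA8, the constitutive HSP70, rose in MV-4-11 (1.05) and fell in Kasumi-1 (-0.59), a difference of 1.65 ± 0.23 (SE, adjusted p = 8.9e-05). DNAJB1, its cochaperone, rose in MV-4-11 (0.99) with no called change in Kasumi-1 (-0.02). The inducible HSPA1A varied between replicates, with 25.4 and 2.86 FPKM in the treated Kasumi-1 libraries, and was not called. Among 17 tested genes of the unfolded protein response, 8 were higher and 2 lower, and 7 and 2 both with the GC trend removed and without replicate 2 of Kasumi-1 with ABBV-075. CALR, calreticulin, fell in Kasumi-1 (-1.18), and HERPUD1, of endoplasmic reticulum degradation, fell in MV-4-11 (-1.40).

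The amino acid stress programme went the other way. ATF4 is the factor that raises genes for amino acid synthesis, transport and tRNA charging when amino acids are short. Of 21 tested members of its list 15 were called lower in MV-4-11 and 3 higher, with a median of -1.42, and 17 and 2 with the GC trend removed (median -1.56). Leaving out replicate 2 of Kasumi-1 with ABBV-075 gave 15 lower and 1 higher. In MV-4-11 19 fell and 0 rose, and in Kasumi-1 11 fell and 5 rose. DDIT3, the stress factor CHOP, stood at 45.8 and 48.04 FPKM with DMSO and 12.1 and 14.3 FPKM with ABBV-075 in MV-4-11, and at 11.7 and 15.3 and then 31.4 and 27.2 FPKM in Kasumi-1. It fell in MV-4-11 (-1.76) and rose in Kasumi-1 (1.07), so that the order of the lines was reversed in the treated libraries, and the difference was -2.83 ± 0.28 (SE, adjusted p = 5.9e-06, -2.996 without the GC trend and -2.93 without replicate 2). ALDH1L2, a mitochondrial folate enzyme, stood at 30.99 and 28.6 FPKM with DMSO and 1.78 and 1.65 FPKM with ABBV-075 in MV-4-11, and at 4.29 and 4.03 and then 1.49 and 2.06 FPKM in Kasumi-1. It fell in both lines and far more in MV-4-11, with a difference of -2.60 ± 0.17 (SE, adjusted p = 2.5e-07, -2.47 without the GC trend and -2.45 without replicate 2). ASNS, asparagine synthetase, stood at 208 and 199.9 FPKM with DMSO and 64.5 and 64.5 FPKM with ABBV-075 in MV-4-11, and at 16.3 and 19.1 and then 20.7 and 24.96 FPKM in Kasumi-1. It fell in MV-4-11 and rose in Kasumi-1 (-1.65 and 0.35), a difference of -1.997 ± 0.20 (SE, adjusted p = 6.4e-06, -2.06 without the GC trend and -1.87 without replicate 2). CTH, which makes cysteine, fell in MV-4-11 (-2.22) and was not called in Kasumi-1 (0.11). ATF3, a stress factor downstream of ATF4, fell in MV-4-11 and rose in Kasumi-1, from 0.83 and 1.02 FPKM to 4.93 and 5.64 FPKM, with a difference of -2.08 ± 0.15 (SE, adjusted p = 3.6e-07, -2.29 without the GC trend and -1.996 without replicate 2). SHMT2, the mitochondrial serine enzyme, fell in both lines (-1.03 and -0.91) and was not called in the difference (-0.12 ± 0.27 SE, adjusted p = 0.77), although it was with the GC trend removed (-0.50). DMSO levels of several members were higher in MV-4-11 than in Kasumi-1, as the values of ASNS, DDIT3 and ALDH1L2 show, and the part of this in the response difference was not tested.

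Enzymes that charge tRNAs fell in MV-4-11 for 15 of 18 and in Kasumi-1 for 11 of 18, and the difference was called lower for 6 and higher for 1 (10 and 4 with the GC trend removed, 6 and 1 without replicate 2 of Kasumi-1 with ABBV-075). GARS and CARS, for glycine and cysteine, differed by -1.26 ± 0.18 (SE, adjusted p = 0.00013) and -1.27 ± 0.18 (SE, adjusted p = 0.00013). VARS, for valine, was the exception, with a deeper fall in Kasumi-1 (1.93 ± 0.29 SE, adjusted p = 0.00021). Amino acid transporters fell in both lines, 9 of 11 in each, and were called higher for 3 and lower for 3, or 3 and 4 under either change. SLC38A5, a glutamine carrier, was almost lost in both, from 8.58 and 10.3 FPKM to 0.17 and 0.14 FPKM in MV-4-11 and from 47.6 and 47.7 FPKM to 0.46 and 0.19 FPKM in Kasumi-1. SLC38A2, a related carrier induced by ATF4, fell in MV-4-11 (-0.51) and rose in Kasumi-1 (0.83), a difference of -1.34 ± 0.21 (SE, adjusted p = 0.00035).

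Mitotic genes were called lower in MV-4-11 for 19 of 32 and higher for 0, with a median of -0.67, and 23 and 0 with the GC trend removed (median -0.60). Without replicate 2 of Kasumi-1 with ABBV-075 the counts were 10 and 0. In Kasumi-1 15 of the 32 rose and 1 fell, and in MV-4-11 12 fell and 0 rose. TOP2A, the topoisomerase that untangles chromosomes, stood at 124 and 104 FPKM with DMSO and 82.4 and 70.8 FPKM with ABBV-075 in MV-4-11, and at 94.5 and 109 and then 153 and 207 FPKM in Kasumi-1. The treatments did not overlap in either line, as for 77.8% of all tested genes in MV-4-11 and 72.3% in Kasumi-1. The directions were opposite, and the difference was -1.37 ± 0.23 (SE, adjusted p = 0.00061, -1.13 without the GC trend and -1.15 without replicate 2). KIF23, a kinesin of cytokinesis, stood at 25.9 and 23.2 FPKM with DMSO and 17.3 and 15.6 FPKM with ABBV-075 in MV-4-11, and at 18.3 and 18.8 and then 30.1 and 36.7 FPKM in Kasumi-1, a difference of -1.36 ± 0.20 (SE, adjusted p = 0.00019, -1.23 without the GC trend and -1.22 without replicate 2). HMMR, a spindle protein, was at 29.5 and 57.9 FPKM in the treated Kasumi-1 libraries, and its difference of -1.36 ± 0.42 (SE, adjusted p = 0.026, -1.03 without the GC trend and -0.89 without replicate 2) was lost in 5 of 26 alternatives. CCNB1 and PLK1, cyclin B and the kinase that drives entry into mitosis, were not called (-0.28 ± 0.21 SE, adjusted p = 0.33 and 0.05 ± 0.32 SE, adjusted p = 0.93). PLK1 was called lower with the GC trend removed (-0.39).

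Many promoters of the mitotic genes hold a short element, and 3 of them, picked by the width of the called difference, are shown. A tie between the element and the response was not tested. The sequence TTTGAA is the core of the cell cycle homology region, through which the DREAM and MuvB complexes are known to act on late cell cycle genes. In the 250 bases before the start site in RefSeq (GRCh38.p14), it was found on either strand in 15 of the 26 mitotic genes with an entry (57.7%), counting a gene once if any of its listed starts had it. The same search found it in 16.1% of all 27305 genes of the table. For the other lists, CACGTG, the E-box of MYC and MAX, was in 4 of 25 nucleolar genes (16.0%, against 7.73% of all genes). TGATGNAA, the core of the element bound by ATF4 with C/EBP proteins, was in 4 of 18 ATF4 list genes (22.2%, against 3.89%), and TCACNCCAC, a core of the sterol element, in 1 of 18 cholesterol genes (5.56%, against 1.09%). No motif contains another. The 3 mitotic genes below have the widest called differences among those with the element, and each sequence runs 5′ to 3′ on the strand of the gene, with TTTGAA or its reverse complement in capitals:
TOP2A, chr17:40417897-40418146, minus strand: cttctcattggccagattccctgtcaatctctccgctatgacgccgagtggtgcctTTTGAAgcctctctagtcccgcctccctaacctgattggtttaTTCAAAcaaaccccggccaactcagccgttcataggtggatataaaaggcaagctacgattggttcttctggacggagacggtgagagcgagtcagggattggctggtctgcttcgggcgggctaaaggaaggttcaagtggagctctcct
HMMR, chr5:163460382-163460631, plus strand: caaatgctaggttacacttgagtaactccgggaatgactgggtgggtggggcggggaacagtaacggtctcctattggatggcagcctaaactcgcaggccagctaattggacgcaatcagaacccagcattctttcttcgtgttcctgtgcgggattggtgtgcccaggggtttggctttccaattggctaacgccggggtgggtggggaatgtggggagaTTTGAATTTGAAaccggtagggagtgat
KIF23, chr15:69414099-69414348, plus strand: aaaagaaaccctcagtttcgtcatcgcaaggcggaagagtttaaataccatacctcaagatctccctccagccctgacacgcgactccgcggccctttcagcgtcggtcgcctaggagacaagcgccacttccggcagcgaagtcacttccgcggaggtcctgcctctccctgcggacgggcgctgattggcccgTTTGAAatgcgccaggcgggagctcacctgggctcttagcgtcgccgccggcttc
TOP2A and HMMR each hold 2 copies and KIF23 1, the first base of the nearest copy being 151, 22 and 55 bases before the start. A match describes the letters only.

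DNA replication genes fell in both lines, 32 of 37 in MV-4-11 and 29 in Kasumi-1, with medians of -1.09 and -1.07. The difference was called lower for 11 and higher for 2 (17 and 3 with the GC trend removed, 11 and 1 without replicate 2 of Kasumi-1 with ABBV-075). PRIM1, the primase subunit, fell in MV-4-11 (-1.80) and was not called in Kasumi-1 (-0.21), a difference of -1.59 ± 0.28 (SE, adjusted p = 0.0008). UHRF1, which copies DNA methylation, fell further in Kasumi-1 (1.15 ± 0.19 SE, adjusted p = 0.00054). The helicase subunits MCM2, MCM3 and MCM4 fell in both lines and were not called in the difference. Among 16 tested G1 cyclins, kinases and RB family genes 3 were higher and 5 lower, 3 and 6 with the GC trend removed, and 2 and 5 without that replicate. CCND2, cyclin D2, fell in both lines and further in Kasumi-1 (1.02 ± 0.18 SE, adjusted p = 0.00061), and CCNE1, cyclin E1, fell in both (-0.79 and -0.77) without a called difference.

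CDK inhibitors, the brakes on the G1 kinases, rose in Kasumi-1 for 5 of 6 tested genes and fell for 1, and 2 rose in MV-4-11. Of the 6 genes 5 were called lower in MV-4-11 and 1 higher, with a median of -1.46, and 5 and 0 both with the GC trend removed and without replicate 2 of Kasumi-1 with ABBV-075. CDKN1A, p21, stood at 44.97 and 53.3 FPKM with DMSO and 130.2 and 133 FPKM with ABBV-075 in MV-4-11, and at 0.80 and 0.91 and then 14.6 and 9.12 FPKM in Kasumi-1. It rose in both lines, in Kasumi-1 from under 1 FPKM, and the difference was -1.35 ± 0.26 (SE, adjusted p = 0.0014, -1.80 without the GC trend and -1.66 without replicate 2). In Kasumi-1 it passed the filter only through its treated libraries. Its level was higher in MV-4-11 in both treatments. CDKN1C, p57, stood at 0.73 and 0.80 FPKM with DMSO and 1.27 and 1.81 FPKM with ABBV-075 in MV-4-11, and at 1.99 and 1.40 and then 13.1 and 15.9 FPKM in Kasumi-1, a difference of -2.005 ± 0.20 (SE, adjusted p = 5.5e-06, -2.57 without the GC trend and -1.87 without replicate 2). In MV-4-11 it passed the filter only through its treated libraries. CDKN2C, p18, stood at 23.6 and 22.7 FPKM with DMSO and 22.2 and 22.5 FPKM with ABBV-075 in MV-4-11, and at 54.1 and 55.4 and then 187 and 204 FPKM in Kasumi-1. It rose in Kasumi-1 (1.81) with no called change in MV-4-11, a difference of -1.86 ± 0.21 (SE, adjusted p = 1.3e-05, -2.32 without the GC trend and -1.80 without replicate 2). CDKN1B and CDKN2D, p27 and p19, likewise rose in Kasumi-1 without a call in MV-4-11 (-1.25 ± 0.24 SE, adjusted p = 0.0013 and -1.57 ± 0.27 SE, adjusted p = 0.00061). CDKN2A fell in Kasumi-1 (-1.50), but its difference was lost with the GC trend removed (0.57).

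Among genes of cell survival, 1 of 4 tested anti-apoptotic BCL2 family members was called higher and 0 lower (25% called). Of 8 pro-apoptotic members 2 were higher and 2 lower (50% called, against 27.6% of all tested genes). With the GC trend removed these counts were 1 and 1, and 2 and 2, and without replicate 2 of Kasumi-1 with ABBV-075 they were 0 and 0, and 1 and 2. MCL1 rose in both lines (0.82 and 1.05) and BCL2L11, the killer BIM, did too (1.25 and 1.15), with differences of -0.23 ± 0.17 (SE, adjusted p = 0.32) and 0.09 ± 0.14 (SE, adjusted p = 0.65). The 95% interval for BCL2L11 ran from -0.20 to 0.39. BMF, a related killer, rose in Kasumi-1 (1.74) and was not called in MV-4-11 (-1.63 ± 0.19 SE, adjusted p = 2.0e-05). PMAIP1, NOXA, fell in MV-4-11 (-0.83) and rose in Kasumi-1 (0.92), from 17.8 and 16.7 FPKM to 30.6 and 36.6 FPKM, a difference of -1.74 ± 0.34 (SE, adjusted p = 0.0016, -1.43 without the GC trend and -1.62 without replicate 2). BCL2L1, which encodes BCL-XL, fell in both and gave 0.87 ± 0.27 (SE, adjusted p = 0.024), a call that 6 of 26 alternatives lost. Of 18 tested p53 targets 5 were higher and 5 lower, 6 and 7 with the GC trend removed, and 5 and 4 without that replicate. Among them were AEN, a nuclease, at 1.62 ± 0.23 (SE, adjusted p = 0.00012) and SESN2, shared with the ATF4 list, at -1.96 ± 0.25 (SE, adjusted p = 4.4e-05).

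Interferon response genes were called lower for 7 of 18 and higher for 2, with a median of -0.68 that changed sign in 1 of 26 alternatives, for 8 and 2 with the GC trend removed, and for 11 and 1 without replicate 2 of Kasumi-1 with ABBV-075. XAF1, a proapoptotic interferon target, stood at 37.4 and 32.3 FPKM with DMSO and 1.54 and 1.63 FPKM with ABBV-075 in MV-4-11, and at 1.61 and 1.73 and then 1.35 and 0.31 FPKM in Kasumi-1. The loss in MV-4-11 gave it a difference of -3.19 ± 0.28 (SE, adjusted p = 2.3e-06, -3.08 without the GC trend and -3.61 without replicate 2), and TRIM22, an antiviral factor, differed by -1.47 ± 0.16 (SE, adjusted p = 9.2e-06). The replicates with ABBV-075 in Kasumi-1 were apart for other members, among them ISG15 at 13.7 and 1.95 FPKM and IFI6 at 90.4 and 35.9 FPKM, and neither was called in the deposited values.

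Signalling genes were mixed. Of 11 tested MAPK feedback genes 6 were called higher and 2 lower (median 0.59), and 5 and 2 with the GC trend removed (median 0.24). The median was 0.51 without replicate 2 of Kasumi-1 with ABBV-075. The MAPK feedback gene DUSP1 fell in MV-4-11 (-2.03) and was not called in Kasumi-1 (-1.89 ± 0.32 SE, adjusted p = 0.00061). SPRY2, a receptor tyrosine kinase antagonist, rose in MV-4-11 (0.93) and fell in Kasumi-1 (-1.01), a difference of 1.94 ± 0.15 (SE, adjusted p = 6.5e-07). JUN rose in Kasumi-1 (1.57) with no called change in MV-4-11 (-1.86 ± 0.19 SE, adjusted p = 7.1e-06), whereas IER2, another immediate early gene, rose in MV-4-11 (1.84) without a call in Kasumi-1 (1.60 ± 0.29 SE, adjusted p = 0.00088). The AP-1 list as a whole gave 3 higher and 2 lower of 11, and its median of 0.45 was -0.05 with the GC trend removed. The counts were again 3 and 2 both with that trend removed and without replicate 2 of Kasumi-1 with ABBV-075.

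Some of the widest differences belonged to no list. LPAR6, a lysophosphatidic acid receptor, stood at 2.42 and 1.76 FPKM with DMSO and 0.80 and 0.89 FPKM with ABBV-075 in MV-4-11, and at 17.3 and 20.8 and then 188 and 339.7 FPKM in Kasumi-1, and its difference of -4.41 ± 0.64 (SE, adjusted p = 0.00015, -4.17 without the GC trend and -3.98 without replicate 2) was the widest among all called genes. ANXA1, annexin A1, stood at 10.1 and 9.32 FPKM with DMSO and 1.95 and 2.20 FPKM with ABBV-075 in MV-4-11, and at 1.997 and 1.55 and then 4.89 and 8.61 FPKM in Kasumi-1. It fell in MV-4-11 and rose in Kasumi-1, a difference of -3.25 ± 0.28 (SE, adjusted p = 1.6e-06, -3.02 without the GC trend and -2.90 without replicate 2). UGCG, which makes glucosylceramide, fell in MV-4-11 (-1.01) and rose in Kasumi-1 (1.46), with -2.47 ± 0.28 (SE, adjusted p = 1.8e-05). BIN1, a membrane curvature protein that also binds MYC, rose in MV-4-11, from 0.48 and 0.58 FPKM to 1.18 and 1.59 FPKM, and fell in Kasumi-1, a difference of 2.43 ± 0.27 (SE, adjusted p = 1.5e-05, 1.88 without the GC trend and 2.14 without replicate 2). In MV-4-11 it passed the filter of 1 FPKM only through its treated libraries, so its rise there was a condition of entry. TIMP1, an inhibitor of matrix proteases, fell in Kasumi-1 (-2.13) and gave 2.82 ± 0.62 (SE, adjusted p = 0.0036). TGM5, a transglutaminase, fell from 56.02 and 57.2 FPKM to 1.56 and 1.58 FPKM in MV-4-11, and its difference of -3.004 ± 0.22 (SE, adjusted p = 3.6e-07, -3.29 without the GC trend and -3.01 without replicate 2) rests on low Kasumi-1 levels (2.04 and 1.80, then 0.05 and 0.04 FPKM) and was lost with a pseudocount of 0.1. H3F3AP4 is a pseudogene of a histone H3 gene, and its -3.68 ± 0.88 (SE, adjusted p = 0.0062) may mix reads of its copies.

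Most core BET inhibitor markers rose in both lines, whereas ZMYND8, of the same list, fell in MV-4-11 (-1.29) and in Kasumi-1 (-1.62). Of 12 tested markers 11 rose in MV-4-11 and 11 in Kasumi-1, and 3 were called higher and 2 lower in the difference (2 and 2 with the GC trend removed, 3 and 2 without replicate 2 of Kasumi-1 with ABBV-075). HEXIM1, the P-TEFb inhibitor used as a pharmacodynamic marker, stood at 9.10 and 9.21 FPKM with DMSO and 59.98 and 58.4 FPKM with ABBV-075 in MV-4-11, and at 16.5 and 13.9 and then 64.2 and 65.9 FPKM in Kasumi-1. The treated libraries of both lines fell within 58.4 to 65.9 FPKM, and the difference of 0.54 ± 0.22 (SE, adjusted p = 0.076, 0.44 without the GC trend and 0.56 without replicate 2) was not called, although 6 of 26 alternatives called it. TXNIP, the thioredoxin inhibitor, stood at 108 and 105 FPKM with DMSO and 1119 and 1084 FPKM with ABBV-075 in MV-4-11, and at 75.9 and 89.3 and then 862 and 868 FPKM in Kasumi-1, a difference of -0.02 ± 0.17 (SE, adjusted p = 0.95, 0.05 without the GC trend and -0.01 without replicate 2) with a 95% interval from -0.37 to 0.34. Its paralogue ARRDC4 did differ, rising in both lines and further in MV-4-11 (2.34 ± 0.20 SE, adjusted p = 1.6e-06). SERPINI1, neuroserpin, rose further in Kasumi-1 (-1.22 ± 0.24 SE, adjusted p = 0.0017). The histone transcripts HIST2H2BE and HIST1H2BD, members of a family of near-identical copies, gave 0.03 ± 0.15 (SE, adjusted p = 0.91) and -0.07 ± 0.18 (SE, adjusted p = 0.8). In all, 385 genes changed in the same direction in both lines without a called difference and with a 95% interval inside 0.5 on either side of 0. Among those that fell, TMEM97, a sterol-associated membrane protein, gave -1.74 and -1.72, and TFAP4, a MYC-regulated factor, -1.99 and -2.04.

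ABBV-744 was given at 200 nM against 100 nM for ABBV-075, and both share the DMSO libraries, so the values stand side by side without a comparison. The response difference with ABBV-744 was called for 394 genes (3.62%), 269 higher (2.47%) and 125 lower (1.15%). HOXA10 had a difference of 1.27 ± 0.17 (SE, adjusted p = 0.0012) with ABBV-744, TFRC 1.34 ± 0.16 (SE, adjusted p = 0.00058) and PKM 1.45 ± 0.25 (SE, adjusted p = 0.0057). DDIT3 had -1.29 ± 0.28 (SE, adjusted p = 0.02), and XAF1 -1.28 ± 0.28 (SE, adjusted p = 0.02). With ABBV-744 no difference was called for MYC (0.58 ± 0.25 SE, adjusted p = 0.21), SPI1 (1.001 ± 0.34 SE, adjusted p = 0.12), CDK6 (-0.75 ± 0.27 SE, adjusted p = 0.14), CDKN1C (-0.58 ± 0.20 SE, adjusted p = 0.12), TOP2A (-0.22 ± 0.23 SE, adjusted p = 0.69) or ASNS (0.15 ± 0.20 SE, adjusted p = 0.76).

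The genes of opposite direction were followed into the other lines, whose DMSO libraries are their own. Of the 124 genes that rose in MV-4-11 and fell in Kasumi-1, 37 rose and 36 fell in SKM-1 with ABBV-075, where 58.3% of all tested genes were called (31.1% upward and 27.2% downward). In NCI-H1299, with 40.2% called (18.0% upward and 22.2% downward), 18 rose and 31 fell. Of the 110 genes that fell in MV-4-11 and rose in Kasumi-1, 41 rose and 18 fell in SKM-1, and 23 rose and 30 fell in NCI-H1299. Single genes took either side: SPI1 fell in SKM-1 (-3.27) as in Kasumi-1, CDK6 fell there (-1.82) as in MV-4-11, and HOXA10 fell in SKM-1 (-0.78) as in Kasumi-1. PKM rose in SKM-1 (0.75) as in MV-4-11. The SKM-1 values rest on a DMSO pair that stood apart: its log2 values differed with an SD of 0.671, and mitochondrial transcripts took 9.13% and 22.3% of its FPKM. The part of this in the SKM-1 changes was not tested.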

How the data were processed

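Poly-A RNA of 24 libraries was sequenced on an Illumina HiSeq3000. The authors deposited one table of FPKM values, and DESeq2 is named in the submitters' processing notes without a role. The aligner, the build and the gene models are not stated in the sources used here. FPKM keeps no depth, so no counting error can be stated. Values were analysed as log2(FPKM + 1) with limma 3.58.1 in R 4.3.3, with 12 group means, a trended robust prior, and Benjamini-Hochberg adjustment over the 10896 tested genes. A call is an adjusted p under 0.05. The removed GC trend is a loess fit made per library. It fits each gene's deviation from its mean over the 24 libraries on the GC content of a GENCODE transcript. The transcript is the longest protein-coding one of the gene, or its longest where none is protein-coding. On simulated differences of log2 1 and log2 2, 44% and 90% were called, and 16 of the 150 calls were unchanged genes. The simulated noise was normal, independent between genes and of the same SD for a gene in every group. It held neither a GC trend nor the wider spread of the Kasumi-1 ABBV-075 pair, so these rates cannot be carried over to the real libraries. Named genes were, from each list, up to 6 called members with the largest differences and 3 uncalled ones, the 15 widest differences and 10 widest opposite ones in each direction, the 6 largest rises and falls alike in both lines, and a fixed set of leukaemia genes. Some results that these rules name are not reported here. A few others were chosen after their values were seen. The members and lists were chosen with earlier results of these data known. The alternatives included other pseudocounts, filters, scalings, and left-out libraries. The 4 alternatives that remove the GC trend, keep only genes with a GC value or leave out SKM-1 were chosen after seeing the data.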

Additional observations from a re-analysis of the deposited data

Results flagged for a closer look

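Among the genes whose change was called in opposite directions in the lines, 19 with wide response differences are given, and the difference itself passed the test for each. Of these, 9 rose in MV-4-11 and fell in Kasumi-1. Their differences were 2.75 for HOXA10, 2.73 for CELSR3, a cadherin, 2.47 for PTGS1, a prostaglandin synthase, 2.44 for RFTN1, a lipid raft protein, 2.43 for BIN1, 2.39 for PKM, 2.34 for BAHCC1, 2.25 for TFRC and 2.24 for SLC16A3. The others fell in MV-4-11 and rose in Kasumi-1. Their differences were -3.25 for ANXA1, -2.83 for DDIT3, -2.66 for CLTCL1, a clathrin heavy chain, -2.47 for UGCG, -2.44 for FAM129A, -2.42 for KLF6, -2.33 for CLU, clusterin, -2.31 for CCPG1, -2.08 for ATF3 and -2.04 for MLF1IP, a centromere protein. All 19 kept the call of the response difference in every alternative that tested them, 25 or 26 each. They were picked for wide called differences in these same data, so the kept calls are no separate support. That count does not cover the calls within each line. BIN1 passed the filter in MV-4-11 only through its treated libraries. Of all 225 opposite genes with a GC value, 155 stayed opposite with the GC trend removed.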

How the results depend on the processing

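Of 229 named genes with a called difference, 156 kept it in every alternative that tested them, 25 or 26 each. Many of these were named for their wide differences, so this share does not carry over to all 3002 called genes. Of the 3002, 1663 were also called in the 8 libraries alone. The difference was called for 4612 genes (2560 higher, 2052 lower) of 22119 without the filter on low values, and for 1747 (1099 and 648), with 134 opposite genes, in the 8 libraries alone. Without SKM-1 it was called for 4189 genes, 387 of them opposite. With the GC trend removed 428 were opposite, and 375 when replicate 2 of Kasumi-1 with ABBV-075 was also left out. Leaving out 1 library at a time gave 1798 to 4589 called differences and 118 to 457 opposite genes, 3081 to 5371 changed genes in MV-4-11 and 4925 to 6953 in Kasumi-1. The lowest counts of differences and opposite genes came without replicate 1 of MV-4-11 with DMSO, and the highest without replicate 1 of Kasumi-1 with ABBV-075. Leaving out replicate 1 of Kasumi-1 with DMSO gave 1941 differences. Opposite genes numbered 134 and 127 without replicate 1 or 2 of MV-4-11 with ABBV-075 and 408 without either SKM-1 DMSO library. The share of called differences that were higher was 61.5%, and 50.3% after quantile scaling, 69.5% after sum scaling, 53.5% after median centring and 50.9% with the GC trend removed. With a pseudocount of 0.1 the differences of CD180 (0.076), CSF1R (0.82) and RNASE3 (0.082), all low in a line, changed sign. No paired analysis was possible because the replicate numbers follow accession order and no label ties libraries across groups. The depth behind the FPKM values is unknown.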
